A study of Arabidopsis thaliana with 16 samples.

Results

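The probe sets described here peaked in zone 1, the first of 4 numbered zones into which the Arabidopsis thaliana root was cut, and they number 150 of the 22746 non-control probe sets on the array. They were chosen by level. Intensities were put on the scale log2(intensity + 16), where 16 is a pseudocount, and averaged over the 4 arrays of each zone at both pH values. The margin of a probe set was its zone 1 mean minus the highest of its other zone means, and the 150 largest margins were kept. Levels by zone and margins therefore describe the choice and carry no test, whereas the difference between pH 4.6 and pH 5.7 within a zone was not part of it and was tested.

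Seedlings were of the Columbia ecotype, and the labels name no mutation or transgene. They grew for 5 days on medium at pH 5.7 with 0.5 g/L MES, 1% sucrose and 1% agar, and were then moved for 24 h to medium with 3 mM DMG, 1% sucrose and 1% agar at pH 4.6 or at pH 5.7. Roots were 6 days old when cut, and each of the 8 groups of zone and pH had 2 arrays, 16 in all. The labels number the zones without naming a tissue, and they do not say whether roots were pooled or replicates grown apart, so the p-values below speak for the scatter of these arrays alone and that scatter may be technical.

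A root grows from its tip. Stem cells in the meristem feed files of dividing cells, a root cap covers and shields them and sheds its outer cells, and farther from the tip cells elongate, differentiate and form root hairs. Walls of young and shed cells are remodelled by pectin-cutting enzymes and their inhibitors, while secreted lectins and peroxidases coat or modify the cell surface. Other members are related to late embryogenesis abundant (LEA) proteins, and their place in the cell is not shown here. Auxin, whose Aux/IAA repressor proteins block transcription until degraded, patterns the tip. Acid medium is a stress for roots, since protons in excess disturb ion uptake and cell wall cross-links.

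Of the 20 genes in a list for root tip identity and root cap, 5 were measured by a probe set named for that gene alone, and 1, BBM, a transcription factor of stem cell and embryonic identity, was among the 150. BBM read 176 and 116 on the zone 1 arrays at pH 4.6, 132 and 112 at pH 5.7, and at most 64.1 on the other 12 arrays. ACR4, a receptor kinase of root cap and epidermal cell division, had a margin of 1.04 and ranked 449th of all probe sets. The other 3 measured genes of the list had margins below 0 and were highest in zone 3: JKD (-0.22) and AGL42 (-0.40), transcription factors of the root, and CLE40 (-0.55), a signalling peptide of the root tip. The list thus peaked in zone 1 in 2 of its 5 measured genes. Of 12 root hair genes 5 were measured. The 4 tested were low in zone 1 and high in zone 3, as in EXPA7, an expansin of root hairs. Its level was 5.17 in zone 1 and 9.73 in zone 3 on the log2 scale. XTH26, measured but too dim to be tested, had no peak in zone 3, with levels of 4.32, 4.60, 4.33 and 4.35 in zones 1 to 4. Of 32 cell division genes 4 were measured and none was among the 150, although 3 of the 4 had a margin above 0. No gene of the lists for polar auxin transport, the endodermal barrier or xylem and phloem was measured by a probe set of its own, so those tissues were not checked here. All these lists were chosen with earlier results of these data known, so they describe the zones and are no outside check.

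Margins of the 150 ran from 1.52 to 6.23 with a median of 2.02, in units of log2, and 26 reached 3. Over all non-control probe sets a margin above 0 was found in 7095 (31.2%). The last member inside the limit with a gene name, AT3G18250, had a margin of 1.52, as had the other two probe sets just inside it, and the first 3 outside it had 1.51 (AT5G66780), 1.50 and 1.50. All 150 passed the filter on low values that selected 16405 probe sets for testing, but 56 of them did so only through zone 1. A single gene was named for 81 members, several genes for 3 and none for 66, which are not listed in the annotation used here; 54.0% with a single name compares with 59.4% of all non-control probe sets. None of the named members was encoded in an organelle.

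The median member stood at a level of 8.81 in zone 1, 6.19 in zone 2, 5.64 in zone 3 and 5.28 in zone 4 on the log2 scale, which as intensities is 433, 57.2, 33.8 and 22.8. Zone 2 held the next highest level for 95 members, zone 3 for 29 and zone 4 for 26. Levels declined in the order of the zone numbers in 61. In 129 members every zone 1 array was above every other array, and in 21 the ranges overlapped. The peak was present at each pH taken alone in 149 of the 150, with a median margin of 2.06 at pH 5.7 and 2.00 at pH 4.6. The exception was AT3G61930, whose margin was 3.64 at pH 5.7 and -0.40 at pH 4.6. The counts of 129 and 149 come from the same levels that chose the 150 and were not made over all non-control probe sets. They are a description of the choice.

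**Figure D1:**
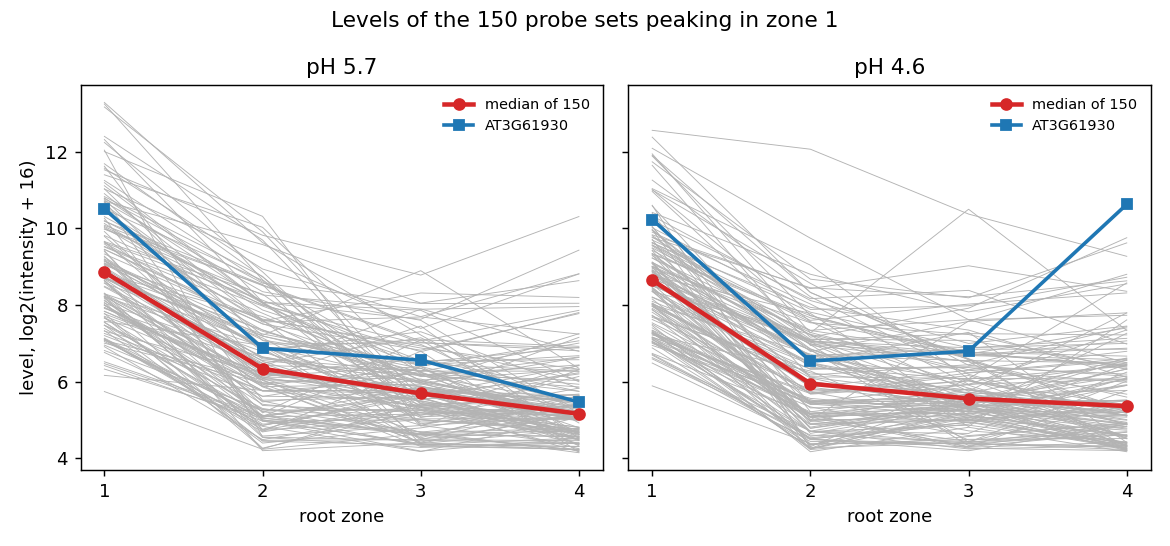
Mean level of each of the 150 probe sets (grey lines) in root zones 1 to 4, as log2(intensity + 16), at pH 5.7 (left) and pH 4.6 (right), with 2 arrays per point. The median (red) declines from zone 1 to zone 4 at both pH values, while AT3G61930 (blue) declines at pH 5.7 and is as high in zone 4 as in zone 1 at pH 4.6.

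The single-gene member with the largest margin, 6.23 on the log2 scale, was AT1G50060, which encodes a protein of the CAP family, the family of the secreted pathogenesis-related protein PR-1. Its intensity in zone 1 was 4182 and 4232 at pH 5.7 and 1455 and 665 at pH 4.6, and no other array exceeded 47.4. All zone 1 arrays were thus far above all others at either pH. Its neighbour in the genome with no protein-coding gene between them, AT1G50050, is a CAP gene as well and had a margin of 2.09.

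Families were assigned by hand to 39 of the 81 named members after the members were known, so their sizes are a description. Jacalin-related lectins, proteins that bind sugars, supplied 5 members, of which AT1G52050, AT1G52060 and AT1G52070 lie next to each other with no protein-coding gene between neighbours. AT1G52070 had the largest margin of the 5, 4.37, and read 8431 and 11184 in zone 1 at pH 5.7 and 4364 and 3273 at pH 4.6. AT1G52060 had a margin of 3.15 and read 6547 and 12923 at pH 5.7 and 2428 and 2451 at pH 4.6. AT5G35940 and AT1G33790, the remaining lectins, had margins of 3.71 and 2.75. Because these genes are close relatives, their probe sets may share some signal, which the files do not resolve.

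Genes of the cell wall formed another group. Pectin enzymes and inhibitors supplied 4 members with margins of 1.97 to 4.22: AT5G62340, a protein of the pectin methylesterase inhibitor family, the polygalacturonases AT1G65570 and AT3G15720, which cut pectin chains, and the pectin methylesterase AT5G04970. The SKU5-similar genes sks15 (AT4G37160) and sks16 (AT2G23630), relatives of a multicopper-oxidase-like protein of directional root growth, had margins of 4.29 and 3.54. AT5G24070, a class III peroxidase, had a margin of 3.88 and read 4076 and 2498 in zone 1 at pH 4.6 and 2191 and 2213 at pH 5.7. Of the Stig1 family, small cysteine-rich secreted proteins known from tobacco stigmas, AT1G50720 had a margin of 3.78 and AT4G26880 one of 2.00.

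LEA-related proteins supplied 4 members with margins of 3.14 to 3.85. AT5G54370, with the largest of these margins, read 8969 and 11118 in zone 1 at pH 5.7 and 7872 and 3601 at pH 4.6, and in zone 4 it read between 12.4 and 32.1. AT5G60530 read 5099 and 5721 against 4798 and 3047, and in zone 4 at most 39.2. The others of this group, AT3G19430 and AT4G27400, had margins of 3.74 and 3.40. In each of the 4 genes every zone 1 array was above every array of zones 2 to 4.

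Defence-type proteins supplied AT1G56680, a chitinase-like protein (margin 3.41), ATLP-1, a thaumatin-like protein (2.30), and AT2G43535, a defensin-like protein (1.67). Auxin genes were IAA33 (2.89) and IAA20 (1.80), members of the Aux/IAA repressor family, and AT5G51470 (3.05), of the GH3 family, several of whose enzymes join auxin to amino acids. Beside BBM, regulators were AGO7 (2.25), the Argonaute protein of the trans-acting siRNA pathway, and AT1G21340 (2.56), a Dof-type transcription factor. Receptor and other kinases supplied 4 members, among them AT1G34110, a leucine-rich repeat receptor kinase of the root meristem peptide pathway, with a margin of 1.80. Specialised metabolism supplied 4: the glycosyltransferase AT1G10400 (3.06), the cytochrome P450 AT1G73340 (2.59), the terpene synthase AT1G33750 (1.67) and the glutathione transferase ATGSTF13 (1.63). Among the 20 named genes of largest margin, the one not yet mentioned is AT3G10780, of the p24 family of vesicle cargo receptors, with a margin of 2.89.

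Technical measures of the zone 1 arrays at each pH stand beside the zone 1 results that follow. Control ratios of zones 3 and 4 are given with the results of those zones. The first quartile of intensity was 27.42 and 25.80 at pH 4.6 and 19.29 and 20.07 at pH 5.7. The mean level of 69 plastid-encoded genes was 9.91 and 10.29 at pH 4.6 and 8.25 and 8.78 at pH 5.7 on the log2 scale. The log2 ratio of 3′ to 5′ probe sets of the GAPDH control was 7.99 and 5.77 at pH 4.6 and 4.95 and 5.59 at pH 5.7. The same ratio overlapped between the pH values for ubiquitin (3.73 and 3.28 against 3.04 and 3.29) and for actin (5.32 and 6.91 against 5.77 and 5.20). Pearson r between the zone 1 replicates, over all tested probe sets, was 0.913 at pH 4.6 and 0.957 at pH 5.7. In pieces of whole root, fewer cells of a type and less RNA per cell cannot be told apart. The part of these measures in the results was not tested.

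In zone 1, 5 of the 150 fell at pH 4.6 (adjusted p under 0.05, limma, Benjamini-Hochberg over 16405 probe sets) and none rose. That is 3.33% of them, against 0.378% of all tested probe sets called lower and 0.683% called in either direction. At unadjusted p under 0.05, 25 were lower (16.7%) and 5 higher (3.33%), against 6.54% and 6.35% of all tested probe sets. Named genes that fell were AT5G62340, AT3G19430 and AT1G52050, and the other two were 264775_at, which the annotation does not list, and 260130_s_at, which it gives several genes. The median effect over the 150 was -0.26 on the log2 scale, against 0.02 over all tested probe sets, and 96 (64%) had an effect below 0, against 48.5%. Centring each array on its median moved the median of all tested probe sets to -0.13 and that of the 150 to -0.41, and quantile normalization gave -0.03 and -0.22. Both pH 4.6 arrays were below both pH 5.7 arrays in 57 members (38%), against 22.9% of all tested probe sets, and above them in 21 (14%), against 25.9%. All 5 that fell were among the 94 members that passed the filter through another zone too, whose median effect in zone 1 was -0.36, and the 56 that passed through zone 1 alone had a median of -0.15.

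AT3G19430, one of the LEA-related genes, read 2385 and 4137 in zone 1 at pH 5.7 and 411 and 145 at pH 4.6. The 2 pairs of arrays were well apart, and the fall was 3.59 ± 0.59 on the log2 scale (SE; limma adjusted p = 0.0101). On the other 12 arrays the gene stayed at or below 85.8 and its effects lay between -0.80 and -0.25. AT5G62340, the inhibitor-family protein, read 4474 and 5809 at pH 5.7 and 409 and 597 at pH 4.6, a fall of 3.33 ± 0.69 (limma adjusted p = 0.0398). AT1G52050, the lectin, read 4462 and 5242 at pH 5.7 and 947 and 829 at pH 4.6, a fall of 2.43 ± 0.40 (limma adjusted p = 0.0101). In all 3 genes the pH values did not overlap in zone 1, and at pH 4.6 zone 1 was still above the other zones at that pH.

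Single arrays decided most of these calls. The count of 5 became 1 without replicate 1 at pH 4.6, 4 without replicate 2 at pH 4.6, 1 without replicate 1 at pH 5.7 and 0 without replicate 2 at pH 5.7. The fall of AT5G62340 lost its call without any of the 4 (adjusted p from 0.0537 to 0.311), that of AT3G19430 only without replicate 2 at pH 5.7 (0.102), and that of AT1G52050 in all removals but that of replicate 2 at pH 4.6 (up to 0.0838). The effects themselves stayed between -3.59 and -3.06, at or below -3.19, and between -2.54 and -2.31. With a pseudocount of 1 none of the 150 passed. Removing an array of another zone gave 3 to 7 calls, with 3 without either pH 4.6 array of zone 2 or of zone 4. Calls over all tested probe sets changed in these removals too. A further removal was chosen after seeing the data. It left out the 4 arrays of zones 2 to 4 whose plastid mean was over 1 above that of their own replicate. Each group concerned kept 1 array. More of the 150 then passed in zone 1, but so did more of all tested probe sets. Effects in zone 1 do not use these arrays. Those of AT1G50060 (-2.08), AT4G27400 (-2.06), AT1G52070 (-1.36) and AT1G52060 (-1.91) stayed as they were.

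**Figure D2:**
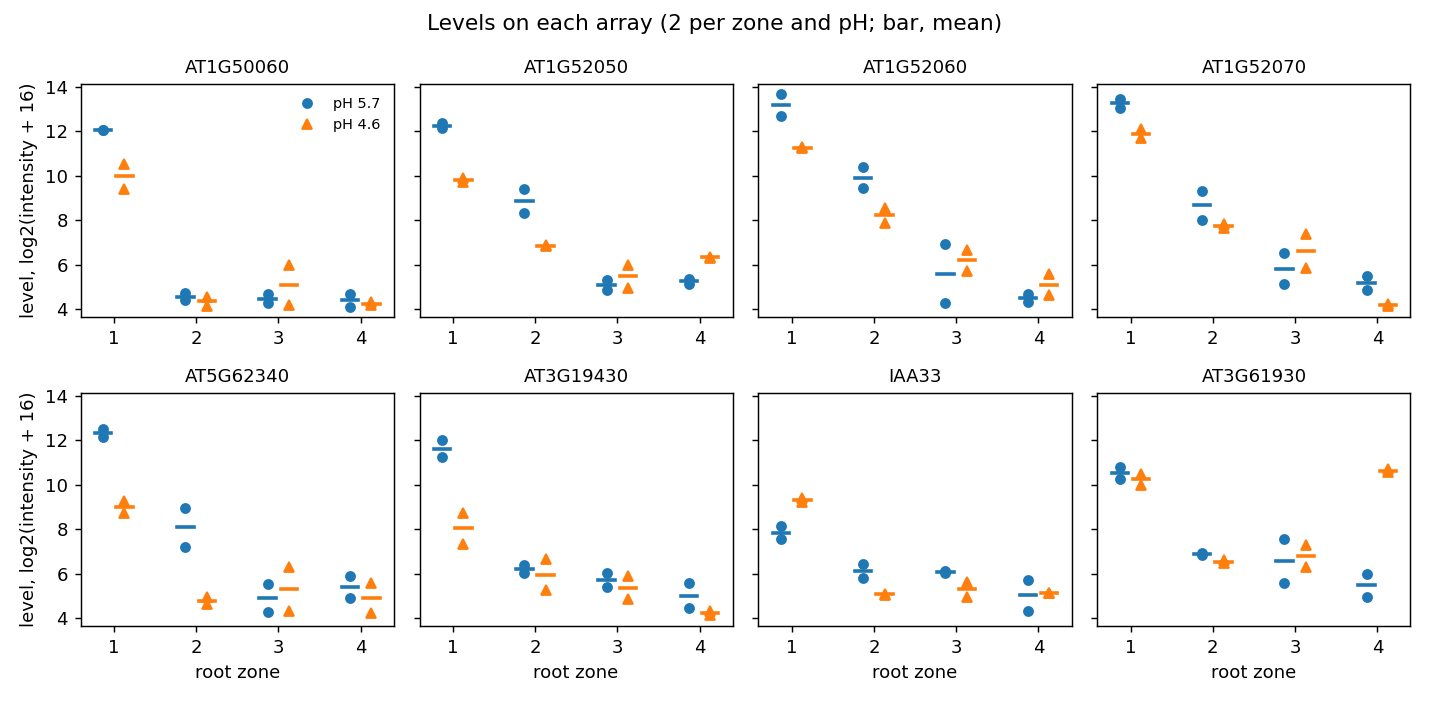
Level of 8 genes on each of the 16 arrays, as log2(intensity + 16), by root zone at pH 5.7 (blue circles) and pH 4.6 (orange triangles), with bars at the mean of 2 arrays. In zone 1 the pH 4.6 arrays lie below the pH 5.7 arrays in the first 6 genes and above them in IAA33, and AT3G61930 is high in zone 4 at pH 4.6 only.

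Most relatives of the genes that fell had effects below 0 in zone 1, but so did 64% of all members. These families were grouped after the members were known. Without any called gene, specialised metabolism had 4 of 4 below 0, and the SKU5-similar, CAP and Stig1 families 2 of 2 each. The kinases had 3 of 4, defence-type proteins 2 of 3, and auxin genes and regulators 1 of 3 each. Cytoskeleton genes had 1 of 2 and the peroxidase 0 of 1. Effects below 0 are thus not shown to be particular to these relatives. Of the 5 lectins, 4 had effects below 0 in zone 1, with both pH 4.6 arrays below both pH 5.7 arrays: beside AT1G52050 they were AT1G52060 (-1.91 ± 0.66, adjusted p = 0.222), AT1G52070 (-1.36) and AT5G35940 (-1.10). The fifth, AT1G33790, had an effect of 0.35. All 4 pectin genes and all 4 LEA-related genes had effects below 0, from -3.33 to -0.58 and from -3.59 to -0.50. The arrays of the polygalacturonases AT1G65570 and AT3G15720 overlapped between the pH values, and the effect of AT1G65570, -0.80, was 0.23 without replicate 1 at pH 5.7. AT4G27400, of the LEA-related genes, read 2012 and 2152 at pH 5.7 and 556 and 425 at pH 4.6 (-2.06 ± 0.49, limma adjusted p = 0.0715). AT1G50060 had an effect of -2.08 ± 0.55 and did not pass either (adjusted p = 0.105).

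Other members had values on the opposite side, and none of them passed the test in zone 1. IAA33 read 662 and 579 at pH 4.6 and 266 and 170 at pH 5.7, with no overlap (1.47 ± 0.48, limma adjusted p = 0.192; 1.30 and 0.0327 with a pseudocount of 64), while IAA20 had 0.17 and AT5G51470 -1.26. AT3G18250 read 1324 and 821 at pH 4.6 and 423 and 186 at pH 5.7 (1.83, adjusted p = 0.232). The peroxidase AT5G24070 had an effect of 0.53, AGO7 one of 0.89 and BBM one of 0.21. No tested gene of the root tip, cell division, root hair or proton pump lists passed in zone 1.

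Effects below 0 were most frequent where the peak was steepest. The 30 largest margins had a median effect of -0.65 in zone 1, with 22 below 0, the next 60 a median of -0.26 with 37 below 0, and the last 60 a median of -0.17 with 37 below 0. The order of margins and the effects come from the same arrays, so these medians are a description.

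Zone 2 was the second highest zone of most members, and there 2 of the 150 fell at pH 4.6 and 1 rose, which is 2% against 0.384% of all tested probe sets in either direction and 0.0853% lower. AT1G52050 fell again, from 664 and 305 at pH 5.7 to 97.8 and 102 at pH 4.6 (2.01 ± 0.40 on the log2 scale, limma adjusted p = 0.0405). Also, 260130_s_at, which matches several genes, fell (-2.90 ± 0.43), and 259008_at, with no gene name, rose (3.13 ± 0.57). AT5G62340 read 132 and 480 at pH 5.7 and 8.55 and 15.1 at pH 4.6, an effect of -3.30 ± 0.69 that missed the threshold (adjusted p = 0.0514). Calls in zone 2 numbered 1 without replicate 1 at pH 4.6, 0 without replicate 2 at pH 4.6 and 0 without replicate 1 at pH 5.7, and 8 without either zone 3 array at pH 5.7.

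The median effect of the 150 in zone 2 was -0.40, against -0.01 over all tested probe sets, and 106 (70.7%) lay below 0, against 50.9%. Over the 94 members that passed the filter through another zone too, the median was -0.41 and 69 (73.4%) lay below 0. For the 56 that passed through zone 1 alone and were dim in zone 2 it was -0.39, with 37 below 0. Both pH 4.6 arrays were below both pH 5.7 arrays in 59 (39.3%), against 21% of all tested probe sets, and above them in 15 (10%), also against 21%. All 4 pectin genes, all 4 LEA-related genes and 4 of the 5 lectins had effects below 0 here too. Of families without a called gene, specialised metabolism had 4 of 4 below 0 and the auxin genes 1 of 3. Zones 1 and 2 share no array. In 73 members both effects were below 0, in 21 both were above 0, and in 9 both were lower by at least 1. These joint counts were not made over all tested probe sets and are a description. They follow in part from the 96 members below 0 in zone 1 and the 106 in zone 2. Pearson r between the effects in zones 1 and 2 was 0.385 over the 150 and 0.171 over all tested probe sets, which are not independent of one another. AT3G19430, with -3.59 in zone 1 and -0.25 in zone 2, and IAA33, with 1.47 and -1.06, are examples of unlike values.

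**Figure D3:**
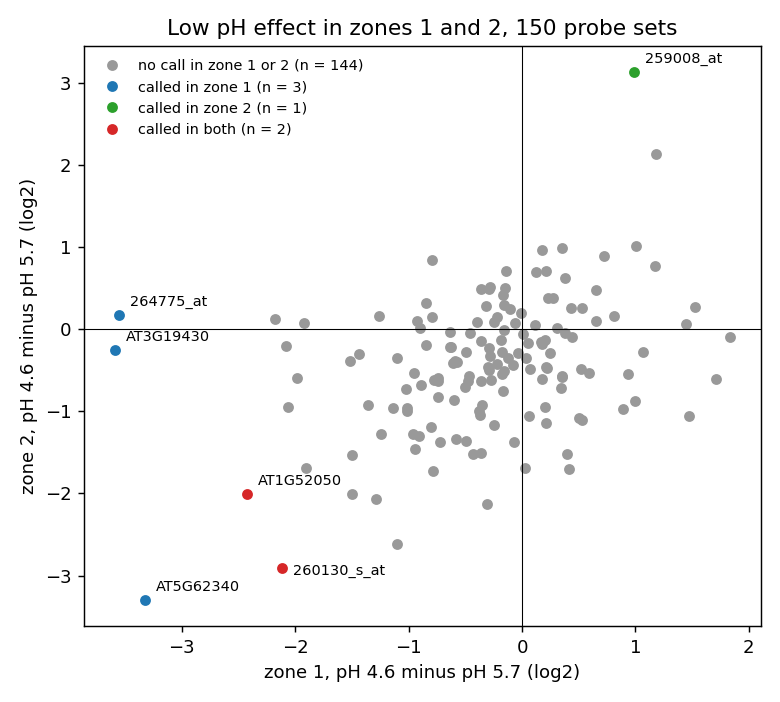
Difference between pH 4.6 and pH 5.7 in zone 1 (x axis) and in zone 2 (y axis), in log2 units, for the 150 probe sets, with 2 arrays per zone and pH; colours mark those past the limma threshold of adjusted p under 0.05. Points are most dense at the lower left, where 73 lie, a count not made over all tested probe sets. The named genes that fell are AT1G52050 in both zones and AT5G62340 and AT3G19430 in zone 1.

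In zone 3, 2 of the 150 rose and none fell, or 1.33% against 2.8% of all tested probe sets in either direction (1.9% higher and 0.896% lower). Both, 259061_at and 259008_at, have no gene name here. The median effect was -0.01, against 0.06 over all tested probe sets, and 75 lay on each side of 0. The 94 members bright enough in another zone had a median of 0.11, and the 56 others one of -0.22. Without replicate 1 at pH 5.7 more of the 150 were called, as were more of all tested probe sets. Without either pH 4.6 array of this zone fewer of both were called. Removing an array of another zone moved the calls among the 150 less. Replicates at pH 5.7 in this zone correlated least, with Pearson r of 0.571 over the 150. The log2 ratio of 3′ to 5′ GAPDH probe sets in zone 3 was 4.13 and 4.44 at pH 4.6. At pH 5.7 it was 5.08 and 5.59. That of ubiquitin was 2.90 and 2.92 against 3.07 and 3.345, and that of actin overlapped. The mean level of the plastid-encoded genes in zone 3 was 7.90 in replicate 1 and 9.89 in replicate 2 at pH 4.6, and 7.76 and 10.31 at pH 5.7. The part of these measures in the zone 3 results was not tested.

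In zone 4, where the members were dimmest, 6 of the 150 rose at pH 4.6 and 2 fell, or 5.33% against 2.91% of all tested probe sets in either direction, with 1.38% called higher and 1.53% lower. Of these 8, 7 were among the 94 members that passed the filter through another zone too (7.45%), and 1 that rose, 245038_at, passed it through zone 1 alone. Among the 7, 245567_at passed outside zone 1 only through zone 4 itself (6.83, against 4.45 in zone 2 and 5.47 in zone 3). Its called rise lies there, so the 7.45% is a description. The largest rise was that of AT3G61930, whose protein has no role stated here. It read 14.8 and 48.2 at pH 5.7 and 1490 and 1655 at pH 4.6, a rise of 5.16 ± 0.53 (limma adjusted p = 0.000158), and this call was kept without any 1 of the zone 4 arrays. It was also the largest of 5 members whose zone 4 effect was above the mean effect of zones 1 to 3 by a test of that difference added after the values were seen (1.21% of all tested probe sets in either direction, 0.396% higher and 0.811% lower). Members dim in zone 4 had little room to fall there, so the direction of these 5 is in part fixed by the choice. In zone 1 AT3G61930 read 1748 and 1195 at pH 5.7 and 1430 and 987 at pH 4.6, with overlap between the pH values. At pH 4.6 zone 4 was thus as high as zone 1. AT3G57160 rose from 38.8 and 26.5 to 182 and 136 (1.84 ± 0.41, adjusted p = 0.0229), a call lost without any 1 of the 4 arrays. The other 4 that rose have no gene name here, and 2 of them, 263096_at (3.46 ± 0.40) and 259550_at (2.72 ± 0.40), kept their call in every such removal. The count of 8 became 3 without replicate 1 or 2 at pH 4.6 or replicate 1 at pH 5.7, and 5 without replicate 2 at pH 5.7. The median effect was 0.08, as it was over all tested probe sets, and centring turned both to -0.06. It was 0.19 over the 94 and 0.01 over the other 56. The log2 ratio of 3′ to 5′ GAPDH probe sets in zone 4 was 5.67 and 4.92 at pH 4.6. At pH 5.7 it was 3.25 and 3.65. That of ubiquitin was 3.24 and 2.76 against 2.26 and 2.55, and that of actin overlapped. The part of these ratios in the zone 4 results was not tested.

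**Figure D4:**
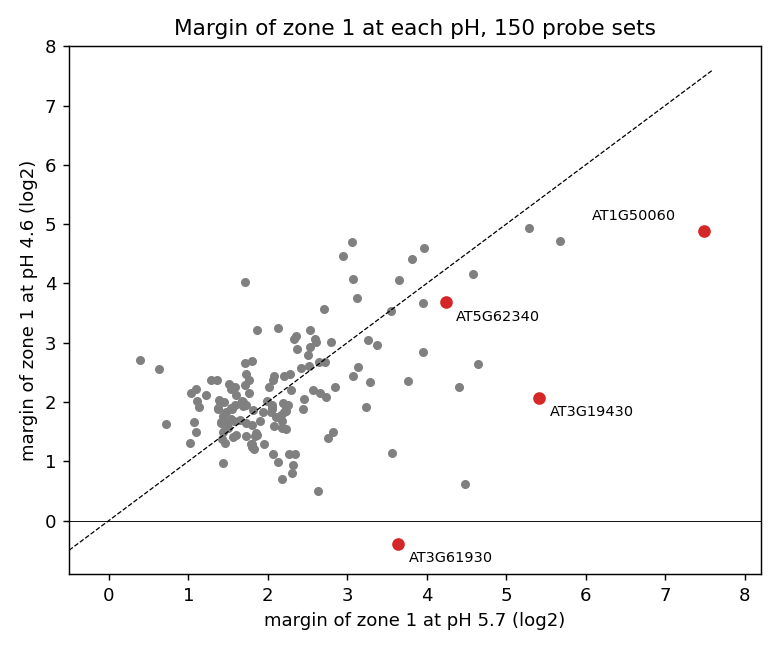
Margin of zone 1 over the next highest zone at pH 5.7 (x axis) and at pH 4.6 (y axis), in log2 units, for the 150 probe sets; the dashed line marks equal margins and 4 genes are named. AT3G61930 is the only point below 0 at pH 4.6, and 72 of the 150 have the larger margin at pH 5.7.

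Averaged over the 4 zones, 10 of the 150 rose at pH 4.6 and 6 fell, or 10.7% against 6.07% of all tested probe sets, with 3.66% called higher and 2.4% lower. Centring each array on its median left 5 that rose and 6 that fell, while calls over all tested probe sets went from 995 to 584. Named genes that fell were AT5G62340 (-1.68 ± 0.35, limma adjusted p = 0.00968), AT3G19430 (-1.25 ± 0.30, 0.0207) and AT1G52050 (-0.74 ± 0.20, 0.0409). AT3G18250 rose by 1.51 ± 0.32 (0.0117), AT3G61930 by 1.20 ± 0.27 (0.0151), and the lectin AT1G33790 by 0.92 ± 0.24 (0.0349). Such means can join unlike zones. Taken by zone, AT3G61930 was called in zone 4 (5.16) and in no other, and AT1G52050 had effects of -2.43, -2.01, 0.40 and 1.09 in zones 1 to 4. Calls of AT5G62340, AT3G18250 and AT3G61930 were kept without any 1 of the 16 arrays, while that of AT1G52050 was kept in 3 removals, that of AT1G33790 in 6 and that of AT3G19430 in 11. Of the 16, 8 are not listed in the annotation and 2 match several genes, of which 260130_s_at fell by 2.17 ± 0.21 (adjusted p = 5.66e-05). This probe set read 1775 and 1556 in zone 1 at pH 5.7 and 267 and 511 at pH 4.6, and its arrays did not overlap in any zone. The count of 16 became 8 without replicate 2 of zone 1 at pH 5.7, 9 without either zone 2 array at pH 4.6 or either zone 4 array at pH 4.6, and 10 without replicate 2 of zone 2 or of zone 4 at pH 5.7.

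Whether the pH effect in zone 1 differed from that in the other zones was tested as the zone 1 effect minus the mean of the zone 2, 3 and 4 effects. None of the 150 passed in limma, against 0.0122% of all tested probe sets. At unadjusted p under 0.05 there were 20, or 13.3% against 10.8% of all tested probe sets. Of the 150, 16 were lower (10.7% against 5.8%) and 4 higher (2.67% against 4.97%). The difference was -3.12 ± 0.68 for AT3G19430 (adjusted p = 0.110), -2.25 ± 0.46 for AT1G52050 (0.103), -2.19 ± 0.80 for AT5G62340 (0.372) and 2.05 ± 0.55 for IAA33 (0.207). A fall called in zone 1 and not elsewhere is therefore not shown to be particular to zone 1. With a pseudocount of 64, which weighs down dim values further, 7 passed, against 42 of all 16456 probe sets tested in that setting.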

How the data were processed

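Levels come from 16 Affymetrix arrays of root zones, 2 for each of 4 zones and 2 pH values. Per the labels' protocols, RNA was purified on Qiagen columns and made into biotin-labelled cRNA with the Affymetrix 2-cycle method. The deposited values are linear signal intensities, 1 per probe set and array, which the authors made with MAS5 per the submitters' processing notes; no version of it is given in the sources used here. The 64 control probe sets were left out. Names came from the platform annotation, updated by Entrez identifier with a RefSeq gene table (assembly TAIR10.1); it held all 81 singly named members. No build is named for the table, so no coordinates are given.

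Intensities were analysed as log2(intensity + 16), which understates changes of dim probe sets. Probe sets whose mean in at least 1 zone reached the 40th percentile, 5.95, were tested (16405). In R 4.3.3, limma 3.58.1 fitted 1 mean for each of the 8 groups (lmFit) and moderated the variances along intensity (eBayes, trend), with 8 residual and 7.44 prior degrees of freedom. All p-values are two-sided and adjusted by Benjamini-Hochberg over the 16405, with 0.05 as threshold; errors are SE of the fit. The procedure was tested on simulated data. The number of arrays limits the precision. Members and gene lists were chosen with earlier results of these data known. Genes named are the 20 singly named members of largest margin, those called in zone 1, in the mean effect or in the difference of zone 1 from the others, those at the limit and those of the lists; genes named by family, those called only in zone 2, 3 or 4 and the test of zone 4 against zones 1 to 3 were added after their values were seen. Of the fixed lists not described above, that for proton tolerance had 1 of 10 genes measured and none tested, and that for proton pumps 2 of 9 tested, with 0 members. Alternatives were the pseudocount, scaling, filter, intensity trend, replicate block and removal of arrays. Deviations of same-numbered samples correlated in the 28 pairs of groups with r from -0.249 to 0.414, with a median of 0.011 and 9 pairs over 0.1. The numbers were not taken to pair the samples, but these values do not exclude pairing within some groups.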

Additional observations from a re-analysis of the deposited data

Results flagged for a closer look

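In 5 of the 150 probe sets the pH effect in zone 4 differed from the mean effect in zones 1 to 3 by a test of the difference itself (limma, adjusted p under 0.05), against 1.21% of all tested probe sets. All 5 differences were above 0, against 0.396% of all tested probe sets higher and 0.811% lower, and the test was added after the values were seen. The 150 were chosen for levels in zone 4 below those in zone 1, and the median member read 22.8 in zone 4. Falls there had little room, so the direction of the 5 is in part fixed by the choice. GAPDH and ubiquitin control ratios differed between the pH values on the zone 4 arrays, as given above. AT3G61930 had a difference of 5.28 ± 0.61 (adjusted p = 0.00114), with a rise in zone 4 from 14.8 and 48.2 to 1490 and 1655 and effects between -0.33 and 0.24 in the other zones. The unnamed 263096_at had 3.53 ± 0.46 (0.00195) and the unnamed 259550_at 3.07 ± 0.47 (0.00518). AT1G73340, the cytochrome P450, had 2.90 ± 0.61 (0.0295). In zone 4 it read 93.3 and 53.6 at pH 4.6 and 4.39 and 9.87 at pH 5.7. Its own effect there missed the threshold (1.93 ± 0.53, adjusted p = 0.0637), and its effects in zones 1 to 3 were -0.77, -0.62 and -1.53. AT1G52050, the lectin that fell in zones 1 and 2, had 2.43 ± 0.46 (0.0194), with an effect of 1.09 ± 0.40 in zone 4 that did not pass (adjusted p = 0.172). The first 3 kept the call without any 1 of the 16 arrays, AT1G52050 in 12 removals and AT1G73340 in 9. The count was 3 without any 1 of the zone 4 arrays and 3 with arrays centred on the median.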

How the results depend on the processing

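Under other settings the number of the 150 called in zone 1 went from 5 to 0 (pseudocount 1), 11 (pseudocount 64) and 3 (no intensity trend). Calls over all tested probe sets went from 112 to 100, 133 and 55 in the same settings. Another alternative, chosen after seeing the data, left out the 4 arrays whose plastid mean was over 1 (log2) above that of their own replicate. These were replicate 2 of zone 2 at pH 5.7, of zone 3 at both pH values and of zone 4 at pH 5.7. Their removal left 1 array in these groups. More of the 150 and more of all tested probe sets then passed in zone 1. In zone 2 the number of the 150 called went from 3 to 7 (pseudocount 64), 5 (quantile normalization) and 1 (no trend). In zone 3 it went from 2 to 1 with each of pseudocount 64, centring and no trend. For zone 1 against the other zones it went from 0 to 7 (pseudocount 64) and to 1 with centring or quantile normalization. For zone 4 against the others it went from 5 to 3 with centring. Leaving out each of a zone's own 4 arrays in turn gave 0 to 4 in zone 1, 0 to 3 in zone 2, 0 to 7 in zone 3 and 3 to 5 in zone 4. Leaving out each of the other 12 gave 3 to 7, 2 to 8, 1 to 3 and 7 to 12. Over all 16 removals the mean effect had 8 to 22 calls, zone 1 against the others 0 to 3 and zone 4 against the others 3 to 7. Of the 3 named genes that fell in zone 1, the number that kept the call was 0 with pseudocount 1 and 0 to 3 over the removals. Calls over all tested probe sets changed in these settings and removals as well, so such changes are not particular to the 150. The cause of these changes was not tested. With the replicate number as a block, calls numbered 5 in zone 1, 4 in zone 2, 2 in zone 3, 8 in zone 4, 17 in the mean, 0 for zone 1 and 5 for zone 4 against the others. The zone 1 effect changed sign on removal of a zone 1 array for AT1G65570 (0.23 without replicate 1 at pH 5.7; range from -1.83), AT1G50720 (0.03 without replicate 2 at pH 4.6 and 0.19 without replicate 1 at pH 5.7; range from -0.33) and AT1G10400 (0.11 and 0.10 in the same removals; range from -0.42); none of these 3 had passed the test. Of 150 probe sets, 100 to 147 were chosen again under the other choices of pseudocount, scaling or arrays, and 124 without the same 4 arrays.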
